A study of Mus musculus with 90 samples.

Results

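The regions described here are 7437 places in the mouse embryonic stem cell genome at which the chromatin protein Uhrf1 gave a ChIP peak without a peak of H3K9me3 or Trim28. They were chosen from the peak positions of 6 pooled lists, so that their Uhrf1 signal in the lines used and their lack of both marks are the rule itself and not a finding. Of the 40754 Uhrf1 peaks in the pooled TKOL list, 14638 overlapped by at least 1 bp a peak of the pooled DKO0 list of 30516 peaks. Of these shared peaks, 7437 overlapped no H3K9me3 or Trim28 peak of either line, which was 18.2% of all TKOL Uhrf1 peaks and 50.8% of the shared ones, and they are called unmarked peaks below. The other 7201 shared peaks, called marked peaks, carried H3K9me3 alone (1557), Trim28 alone (409) or both (5235).

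The study asked how Dnmt1 can add DNA methylation in cells that lack the de novo enzymes, and mapped 3 chromatin proteins or marks for that purpose, with 2 replicates per line. TKOL cells are J1 embryonic stem cells without functional Dnmt3a and Dnmt3b that also carry a small hairpin RNA against Dnmt1, and DKO0 cells came from TKOL by Cre-mediated removal of that hairpin, so both lack Dnmt3a and Dnmt3b. WT cells are of the separate V6.5 line, so line background and genotype cannot be told apart between WT and the other lines. Uhrf1 was recovered with a FLAG antibody from clones with a 3xFLAG tag on the endogenous gene, and Tn5 transposase added the sequencing adapters to the bound chromatin (ChIPmentation). H3K9me3 and Trim28 were mapped by ChIP-seq, and cells were grown on feeder fibroblasts. The sample labels give no passage for the DKO0 cells, but their Uhrf1 lists are named with p3 and those of both marks with p5. If these are passages, the marks were mapped in later cells than Uhrf1, and a lack of marks in DKO0 refers to those later cells.

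Uhrf1 brings Dnmt1 to newly replicated DNA, where it reads hemimethylated CpGs through its SRA domain and H3K9 methylation through its tandem Tudor domain. Trim28 is the corepressor that KRAB zinc finger proteins use to bring H3K9me3 to retrotransposons, and both marks are best known in these cells from endogenous retroviruses. Tandem repeats of short units, or microsatellites, are abundant in the mouse genome and are hard to map with short reads.

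Many unmarked peaks carried features from a small set, and the examples below show what these look like, because the later values refer to them. At 3106 of the unmarked peaks (41.8%), none of the exact RE1 matches or runs described below was found. All sequences are mm9, top strand, 5′ to 3′. The first set holds RE1 matches, in which CAGCACC and GGACAG are set apart by 2 bases of any kind. RE1 is the element bound by Rest, a zinc finger repressor that keeps neuronal genes silent outside neurons. Capitals mark the matches on either strand. The Erich1 stretch (intron, chr8:14072699-14072773), the Garnl3 stretch (intron, chr2:32873706-32873780) and the Trappc9 stretch (intergenic, chr15:72399061-72399135) came from peaks with high fold enrichment. The Gm16532 (chr7:6362956-6363030), Rtbdn (chr8:87471194-87471268) and Npas4 (chr19:4989132-4989206) stretches came from coding promoters.
Erich1: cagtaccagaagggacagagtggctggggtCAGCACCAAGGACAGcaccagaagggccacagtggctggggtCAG
Garnl3: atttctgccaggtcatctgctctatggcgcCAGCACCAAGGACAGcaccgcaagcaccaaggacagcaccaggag
Trappc9: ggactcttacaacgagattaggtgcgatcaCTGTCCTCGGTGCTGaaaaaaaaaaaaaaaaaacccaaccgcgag
Gm16532: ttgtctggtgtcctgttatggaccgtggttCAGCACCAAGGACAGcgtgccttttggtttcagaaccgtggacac
Rtbdn: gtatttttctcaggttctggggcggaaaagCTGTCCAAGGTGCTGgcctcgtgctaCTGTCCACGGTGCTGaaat
Npas4: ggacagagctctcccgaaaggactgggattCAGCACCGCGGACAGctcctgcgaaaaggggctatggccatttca

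The second set shows unbroken CA or GA repeats, here called runs where they reach 20 bp on either strand, which are by far the more frequent feature. A GA run reads CT, and a CA run reads TG, when it lies on the bottom strand. Capitals mark the runs. They come from an intergenic peak whose nearest coding gene is the homeobox gene Pbx3 (chr2:33946143-33946226), a peak beside Abcg2 (chr6:58533106-58533393) and an intron of 4931408A02Rik (chr16:90892718-90892785). Joined CA and GA runs are shown from a peak near Sox9 (chr11:112668305-112668402) and an intron of 9430076C15Rik (chr6:53352400-53352535).
Pbx3: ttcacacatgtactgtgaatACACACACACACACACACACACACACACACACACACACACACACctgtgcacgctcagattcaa
Abcg2: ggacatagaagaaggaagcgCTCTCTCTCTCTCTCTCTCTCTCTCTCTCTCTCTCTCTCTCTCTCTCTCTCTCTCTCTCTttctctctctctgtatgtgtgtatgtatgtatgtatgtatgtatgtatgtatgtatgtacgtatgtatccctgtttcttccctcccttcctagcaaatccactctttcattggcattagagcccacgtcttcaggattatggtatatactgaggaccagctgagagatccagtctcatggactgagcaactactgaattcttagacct
4931408A02Rik: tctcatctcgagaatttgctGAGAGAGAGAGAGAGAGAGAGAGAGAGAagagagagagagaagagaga
Sox9: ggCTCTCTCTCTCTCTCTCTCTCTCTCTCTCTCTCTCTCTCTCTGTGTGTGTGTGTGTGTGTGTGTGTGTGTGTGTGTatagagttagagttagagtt
9430076C15Rik: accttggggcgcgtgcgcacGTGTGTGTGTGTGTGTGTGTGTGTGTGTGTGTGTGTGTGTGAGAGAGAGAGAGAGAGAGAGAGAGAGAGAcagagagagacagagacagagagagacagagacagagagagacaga

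The last set shows a repeat of the tetranucleotide GATA (capitals) from an intergenic peak whose nearest coding gene is Dhx35 (chr2:159260629-159260723). It also shows 2 peaks without a run or an exact RE1 match, in which capitals mark the CpGs. These are the intergenic peak with the highest fold enrichment in the pooled TKOL list, whose nearest coding gene is Immp2l (chr12:44073919-44074038), and a peak in an intron of Camta1 (chr4:150978950-150979069).
Dhx35: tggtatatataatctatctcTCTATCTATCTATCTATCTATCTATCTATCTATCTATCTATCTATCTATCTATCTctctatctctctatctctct
Immp2l: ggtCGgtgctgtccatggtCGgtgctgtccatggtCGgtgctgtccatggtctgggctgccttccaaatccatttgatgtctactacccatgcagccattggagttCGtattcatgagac
Camta1: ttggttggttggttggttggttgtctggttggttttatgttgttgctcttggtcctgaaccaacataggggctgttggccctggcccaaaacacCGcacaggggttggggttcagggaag

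The unmarked peaks were short and of modest height. Their lengths ranged from 100 to 2804 bp with a median of 197 bp (quartiles 146 and 290 bp), and they covered 1.84 Mb. The fold enrichment that the authors' peak caller gives in the pooled TKOL list had a median of 2.99, with 10% of peaks below 2.48 and 10% above 3.92, and reached 18.9. In the pooled DKO0 list the median was 2.70. Marked peaks had medians of 2.83 and 2.63. The −log10 of the TKOL q-value had a median of 2.68 and a lowest value of 1.01, so that many members lie close to the threshold at which a peak enters a list.

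The rule also has an edge in distance. An H3K9me3 or Trim28 peak lay within 100 bp of 153 unmarked peaks (2.06%) and within 1000 bp of 923 (12.4%), with a median distance of 10207 bp, and 2 unmarked peaks touched such a peak without overlapping it. On the other side of the rule, the mark covered less than 25% of 161 marked peaks (2.24%), with the smallest overlap at 2 bp, and the whole of 5816 (80.8%). The overlap with the DKO0 Uhrf1 peak was as small as 1 bp, and 243 unmarked peaks (3.27%) were covered for less than 25% of their length. The single-replicate lists of TKOL and DKO0 placed H3K9me3 at 1.55% to 4.52% and Trim28 at 0.417% to 3.20% of unmarked peaks, although the pooled lists did not.

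Recovery of the unmarked peaks in lists of single replicates varied. Replicates 1 and 2 of TKOL held 3431 (46.1%) and 3556 (47.8%) of them, and replicates 1 and 2 of DKO0 held 2091 (28.1%) and 3389 (45.6%). Since these 4 lists come from the same reads as the pooled lists, the values describe the rule. Of the unmarked peaks, 550 (7.40%) were in all 4 lists and 1187 (16.0%) in none of them, where the pooled reads alone gave the peak. Marked peaks were in all 4 lists in 1377 cases.

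WT cells offer Uhrf1 data that the rule did not use, and there the unmarked peaks were rarely found. The list of WT replicate 1, with 30134 peaks, held 411 unmarked peaks, or 5.53% (95% Wilson confidence interval 5.03 to 6.07, counting error only). The list of WT replicate 2, with 49156 peaks, held 858, or 11.5% (10.8 to 12.3). Marked peaks were present in 45.4% and 53.2%. Over all TKOL Uhrf1 peaks the shares were 13.2% and 18%, so that unmarked peaks lay below this background in both lists and marked peaks above it. The number of reads behind a list is not given in it, and the larger WT list held more peaks of both classes.

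The mean over WT lists was 8.53% ± 4.25 (SD, n = 2) for unmarked and 49.3% ± 5.51 (SD, n = 2) for marked peaks, a difference of -40.8 percentage points (exact two-sided permutation test over lists, p = 0.333, adjusted p = 0.333). A comparison of 2 against 2 lists cannot give a smaller p. The gap was close in size in both lists, at -39.9 points in list 1 and -41.7 points in list 2, and exceeded the spread between lists. WT H3K9me3 and Trim28 were also scarce at the unmarked peaks. The rule had split the classes by these 2 marks in TKOL and DKO0, so the direction in WT was largely set by it. These values only describe how far the split carries over to WT, and give no separate support. WT H3K9me3 lists held 2.21% and 1.96% of unmarked against 43.2% and 41.0% of marked peaks, a mean difference of -40.0 points (exact permutation test, n = 2 lists, p = 0.333, adjusted p = 0.333). WT Trim28 lists held 1.92% and 1.20% against 37.2% and 21.7%, a difference of -27.9 points (exact permutation test, n = 2, p = 0.333, adjusted p = 0.333).

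**Figure D1:**
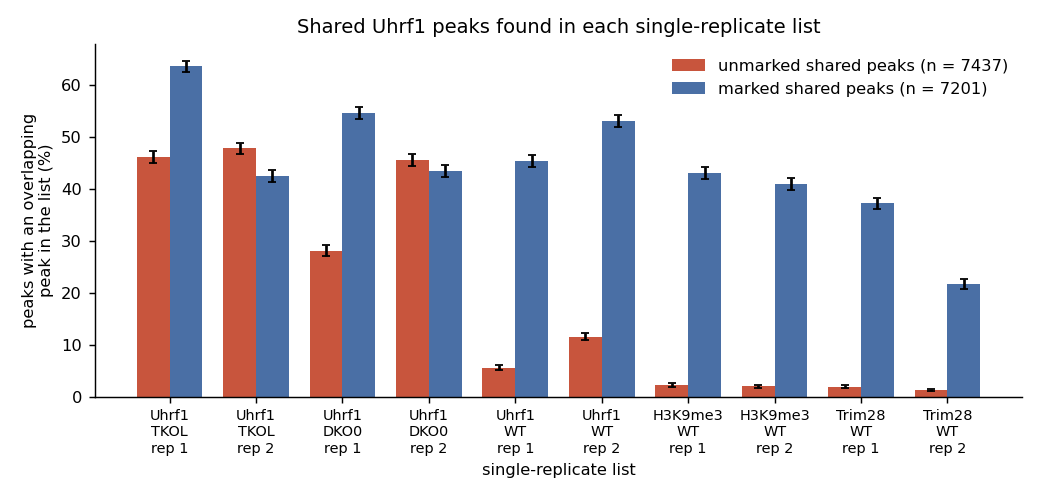
Share of unmarked (red, n = 7437) and marked (blue, n = 7201) shared Uhrf1 peaks, in percent, that overlap a peak of each single-replicate list; bars are shares with 95% Wilson intervals. The 4 TKOL and DKO0 Uhrf1 lists enter the pooled lists that the rule used, whereas the 6 WT lists do not, and in these the unmarked peaks reach at most 11.5%.

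Presence in WT went with presence in the other lines. Of unmarked peaks found in none of the 4 TKOL and DKO0 lists, 5.64% overlapped a peak of at least 1 WT list, and the share was 7.86%, 13.4%, 19.6% and 44.5% for those found in 1, 2, 3 and 4 lists. Either WT list held 1022 unmarked peaks (13.7%) and both held 247 (3.32%). All 6 Uhrf1 lists held 100 unmarked peaks (1.34%), against 901 marked peaks (12.5%). The unmarked peaks seen in every library were thus a small subset.

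Unmarked peaks lay mostly between genes. By the annotation of coding genes, 324 (4.36%, 95% Wilson interval 3.92 to 4.84) were at promoters, that is within 1 kb of a transcript start, 2554 (34.3%, 33.3 to 35.4) in gene bodies and 4559 (61.3%, 60.2 to 62.4) intergenic. These shares were close to those of the genome cut into 200-bp windows, of which 3.37% were at promoters, 36.3% in gene bodies and 60.4% between genes. All TKOL Uhrf1 peaks had 2.41%, 29.2% and 68.4%, and marked peaks had 1.47%, 21.0% and 77.5%. Exons within gene bodies held 97 unmarked peaks (1.30%), below the 3.40% of genome windows. Intergenic unmarked peaks were a median of 38.3 kb from the nearest coding gene (quartiles 11.4 and 126 kb).

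The promoter share depended on the libraries. It was 9.03% when the TKOL lists were replaced by those of replicate 2 (4176 peaks) and 2.80% with those of replicate 1 (3352 peaks), and 3.18% and 6.14% with DKO0 replicate 2 or 1 alone. Gene body shares moved far less, between 32.3% and 35%.

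CpGs were sparse inside the unmarked peaks. Their median density was 0.472 CpGs per 100 bp (mean 0.739), and 36.9% held no CpG at all. All TKOL Uhrf1 peaks had a median of 0.621 (mean 1.06), and 36.0% of them held no CpG. Unmarked TKOL peaks that DKO0 did not share had a median of 0.391 (mean 0.633), and 47.1% held no CpG. Low density was thus not particular to the shared unmarked peaks. Marked peaks had a median of 1.42 (mean 2.07), which came from the peaks with both marks (2.24), since the medians of those with H3K9me3 alone (0.450) or Trim28 alone (0.565) were near that of the unmarked ones. By the mean, peaks with Trim28 alone (1.25) were denser than unmarked peaks, and those with H3K9me3 alone (0.818) slightly so. In windows of 300 bp, the mean density was 0.682 CpGs per 100 bp at unmarked peaks and 0.831 over the genome, while the GC content was higher, with medians of 44.7% and 41.7%. WT Uhrf1 lists had medians of 2.31 and 2.38 CpGs per 100 bp within their peaks. Unmarked peaks at promoters had a median of 1.20, against 3.33 in windows from 250 bp before to 50 bp after all coding transcript starts.

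The most frequent feature of the unmarked peaks was a dinucleotide run. In 300-bp windows centred on the peaks, 2697 (36.3%, 35.2 to 37.4) held a CA run and 3234 (43.5%, 42.4 to 44.6) a GA run of at least 20 bp. Either was present in 4082 (54.9%, 53.8 to 56.0) and both in 1849 (24.9%). Genome windows of this length held a CA run in 2.96%, a GA run in 1.32% and either in 3.96%. Coding promoters held either in 1.75%. The longest run in a window had a median of 42 bp (quartiles 33 and 50 bp) and reached 203 bp. These features were defined after the sequences had been seen, and are descriptions.

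Runs were as frequent at unmarked TKOL peaks that DKO0 did not share. Over all TKOL Uhrf1 peaks, 38% had a CA or GA run. TKOL peaks without a mark that DKO0 did not share had runs in 58.0%, and marked peaks in 5.35%. Among marked peaks, runs were found in 40.6% of those with Trim28 alone, 10.3% with H3K9me3 alone and 1.13% with both. By library, 31.3% and 37.8% of TKOL peaks and 14.5% and 32.3% of DKO0 peaks had a run, against 8.49% and 12.3% of WT peaks. In WT peaks with no H3K9me3 or Trim28 peak in the WT or pooled lists, CA runs were at 12.8% and 16.7% but GA runs at only 2.05% and 3.52%. GA runs in these WT peaks were thus nearer to the genome share of 1.32% than to the 43.5% of the unmarked peaks. WT differs from these in strain, genotype and tagged clone together.

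**Figure D2:**
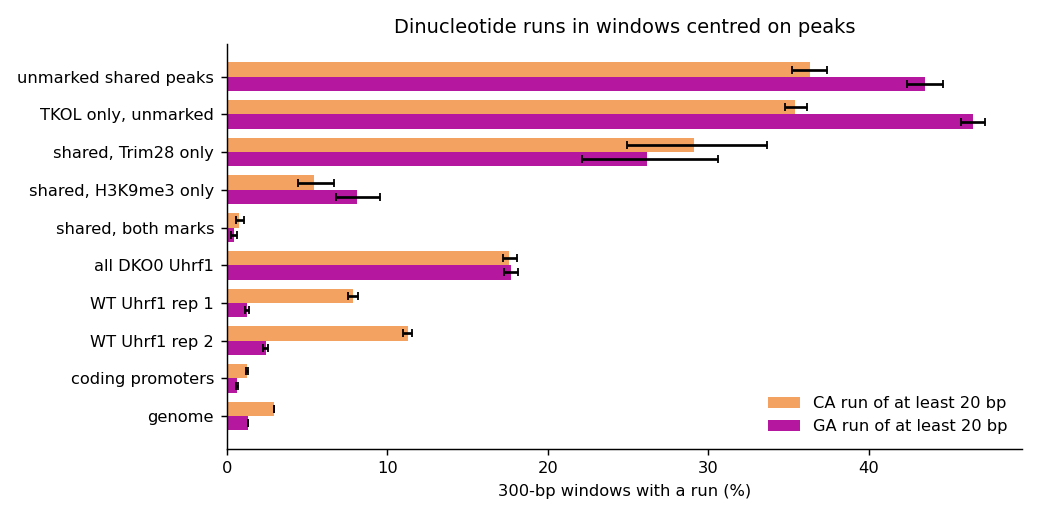
Share of 300-bp windows, in percent, that hold a CA run (orange) or a GA run (magenta) of at least 20 bp; bars are shares with 95% Wilson intervals. Unmarked shared peaks (36.3% and 43.5%) and unmarked peaks of TKOL alone (35.4% and 46.5%) stand above peaks with both marks (0.783% and 0.439%) and the genome (2.96% and 1.32%).

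Only a small part of the genome's runs was involved. Of 272983 CA runs of this length in mm9, unmarked peaks overlapped 2727 (0.999%), and of 120408 GA runs 1712 (1.42%). The pooled TKOL Uhrf1 list as a whole overlapped 3.17% and 3.53%, and the pooled H3K9me3 list of TKOL 0.749% and 0.824%. How reads from such repeats were placed was not tested.

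GA runs lay to a fixed side of the unmarked peaks and mostly outside them. A GA run had its centre within 300 bp of the peak centre at 4537 unmarked peaks, and the run overlapped the peak in 30.5% of these, against 78.7% for CA runs. Where the peak centre was outside the run, it lay 5′ of the run, on the strand that reads GA, at 4055 of 4334 peaks (93.6%, 92.8 to 94.3). The gap between the peak centre and the run had a median of 111 bp (quartiles 86 and 138 bp). CA runs were much closer to even, with 54.0% on the 5′ side (52.1 to 55.8), and in the WT lists 41.3% and 46.8%. The Abcg2 and 4931408A02Rik sequences above show both orientations, since the peak centre lay to the right of the CT run in the first and to the left of the GA run in the second.

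This asymmetry was present in each Uhrf1 library and lowest in WT. It was 93.3% and 92.2% in the TKOL lists, 82.3% and 91.8% in DKO0, and 69.0% and 71.7% in WT, and 84.8% at marked peaks. The pooled Trim28 list of DKO0 and the pooled H3K9me3 list of TKOL had 53.7% each. Uhrf1 was mapped with Tn5 and the marks by ChIP-seq, so that the protein and the library method cannot be told apart here.

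CA and GA runs were often joined. They lay within 2 bp of each other at 1538 unmarked peaks (20.7%). On the strand that reads GA, the run before GA read CA at 807 peaks and TG at 750, whereas a run after GA was found at 4 peaks. That order is a property of the mouse genome, since 98.0% of its 24389 such pairs have the CA or TG run first. At these peaks the CA or TG run therefore stands between the peak centre and the GA run, as in the Sox9 and 9430076C15Rik sequences.

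**Figure D3:**
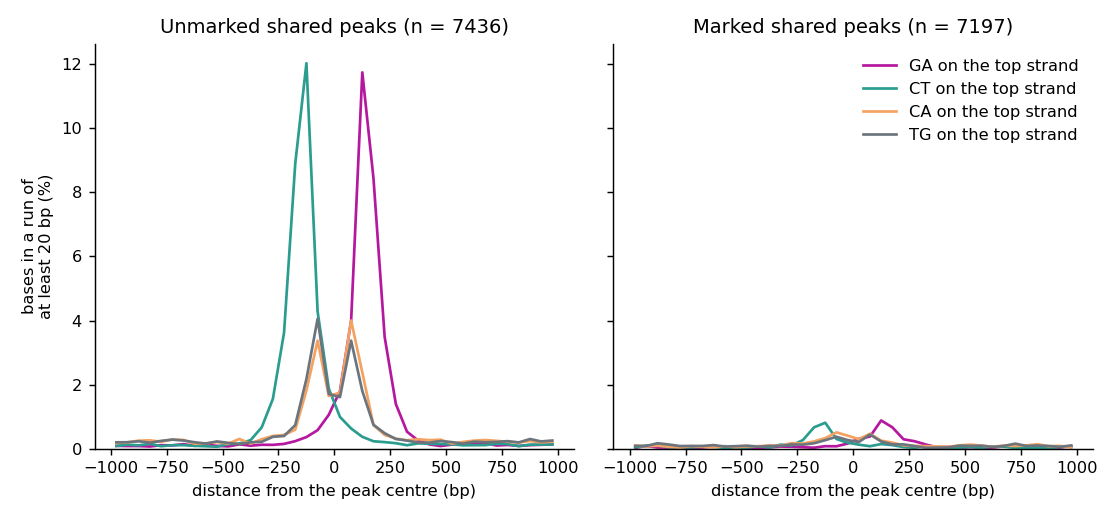
Percent of bases that lie in a run of at least 20 bp, by distance in bp from the peak centre in bins of 50 bp, at unmarked (left, n = 7436) and marked (right, n = 7197) peaks with 1000 bp of sequence on both sides. On the top strand, CT runs peak at 12% in the bin centred 125 bp to the left and GA runs at 11.7% in the bin 125 bp to the right, while CA and TG runs are nearest the centre.

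The second feature, RE1, was rare. An exact RE1 match was found at 61 unmarked peaks, or 0.820% (0.639 to 1.05), against 0.236% of all TKOL Uhrf1 peaks, 0.0833% of marked peaks (4 of the 409 with Trim28 alone, or 0.978%, 0.381 to 2.49; 2 of the 1557 with H3K9me3 alone; 0 of those with both), 0.0343% of coding promoters and 0.00673% of genome windows. With at most 1 mismatch in the 13 fixed positions, 145 unmarked peaks (1.95%) had a match. All DKO0 Uhrf1 peaks had an exact match in 0.498%. The single-replicate lists had one in 0.206% and 0.560% of TKOL peaks and in 0.752% and 0.609% of DKO0 peaks. RE1 was thus not particular to unmarked peaks. Of the 620 exact matches in mm9, unmarked peaks overlapped 81 (13.1%) and marked peaks 6. The whole pooled Uhrf1 lists overlapped 114 (18.4%) in TKOL and 167 (26.9%) in DKO0. The single-replicate Uhrf1 lists overlapped 51 and 100 in TKOL, 101 and 86 in DKO0, and 23 and 37 in WT, while no pooled H3K9me3 or Trim28 list overlapped more than 8 and no single-replicate list of these marks more than 13 (Trim28 in TKOL replicate 1). Like the runs, this element was searched for after sequences had been seen. Rest itself was not mapped in the data used here.

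Peaks with an RE1 match were found in more libraries than the other unmarked peaks. All 4 TKOL and DKO0 lists held 29 of the 61 (47.5%), against 7.06% of those without a match. These 4 lists come from the same reads as the pooled lists, so this contrast describes data that the rule used. Because RE1 was searched for after sequences had been seen, the values here are descriptions only. WT replicates 1 and 2 held 17 (27.9%, 18.2 to 40.2) and 22 (36.1%, 25.2 to 48.6), against 5.34% and 11.3%. Of the 100 unmarked peaks in all 6 lists, 13 had a match. The match lay a median of 32.5 bp from the peak centre and within 50 bp of it in 48 cases. By place, 11 were at promoters, 22 in gene bodies and 28 between genes, and their median CpG density was 2.01 per 100 bp.

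The genes at or nearest to these 61 peaks came from several families. At promoters they were Npas4 (an activity-dependent transcription factor), Snap25 (a SNARE protein of synaptic vesicle fusion), L1cam (a neural adhesion molecule), Nefm (a neurofilament subunit), Rtbdn, Vstm2l, Xkr7, Gja10, Gpr19, Fbll1 and Gm16532. The 22 in gene bodies were in Syt7 (a synaptotagmin), Rbfox3 (the splicing factor known as NeuN), Ina (alpha-internexin), Celf4 (a neuronal RNA-binding protein), Nsf (the ATPase that recycles SNARE complexes), Crhr2, Tas1r3 (a taste receptor), Cd300e (a myeloid receptor), Vrk3, Myo18b, Extl3, Erich1, Garnl3, Xkr6, Phf21b, Ppp2r2c, Fbxw11, Tmem163, Fam155a, Accn1 and Gm20388. The 28 intergenic peaks lay 162 to 334763 bp from the nearest coding gene, and the 10 within 10 kb were nearest to Pou4f3, Nefh, BC018242, Lin28a, Gm9767, Epha8, Slc31a2, Kcnh2, Lhx5 and Slc35f3. No list of neuronal genes was tested. The Xkr6 gene held 2 such peaks, with TKOL fold enrichments of 7.98 and 8.25.

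The strongest members show the values behind this. The Erich1 peak (chr8:14072481-14073012), with 2 exact matches, had fold enrichments of 15.3 and 16.4 in TKOL, 9.28 and 9.73 in DKO0, and 5.99 and 4.93 in WT. The Gm16532 promoter peak (chr7:6362689-6363191) had 10.8 and 15.1 in TKOL, 8.72 and 10.9 in DKO0, and 6.33 and 5.86 in WT. The Rtbdn promoter peak (chr8:87470998-87471548) had 4.67 and 7.19 in TKOL, 6.87 and 8.40 in DKO0, and 2.79 and 3.95 in WT. In all 3, the WT values were the lowest and did not overlap those of the other lines. A fold enrichment depends on the background and reads of its own list, so these values were not tested between lines.

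The unmarked peak with the highest fold enrichment in the pooled TKOL list was intergenic, 1017152 bp from Immp2l (chr12:44073728-44074229). This peak had no RE1 match, exact or with 1 mismatch. Its fold enrichments were 17.5 and 19.4 in TKOL, 12.9 and 14.6 in DKO0, and 9.09 and 7.10 in WT. Its 300-bp window held the left part of the element (CAGCACC) 4 times and the right part (GGACAG) 5 times, counting both strands, at other spacings than in RE1. The Igsf21 peak (chr4:139814802-139815420), with 12.3 and 26.8 in TKOL, 18.5 and 14.6 in DKO0, and 8.03 and 7.64 in WT, held the right part 9 times and the left part 0 times, and an RE1 match with 1 mismatch.

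Rank by TKOL fold enrichment separated the features, with no test because the rule used the same list. Among the 100 highest unmarked peaks, 22 (22.0%, 15.0 to 31.1) had an exact RE1 match, 25 a CA or GA run, 23 a GATA run and 74 a peak in a WT list. At least 1 of these sequence features was present at 69 of the 100. Marked peaks were not ranked in this way, and over all of them 58.1% had a peak in a WT list. Whether these shares go with peak height in general was not tested. Among ranks 101 to 500, RE1 fell to 1.50% and WT presence to 29%, while runs rose to 61.8%. From rank 501 to 4000, runs were at 64.4% to 68.2% and RE1 at 0.200% to 0.600%. The lowest ranks, 4001 to 7437, had runs in 44.3% and a WT peak in 11.6%. CpG density differed little along the ranks, with medians from 0.347 to 0.545 per 100 bp.

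**Figure D4:**
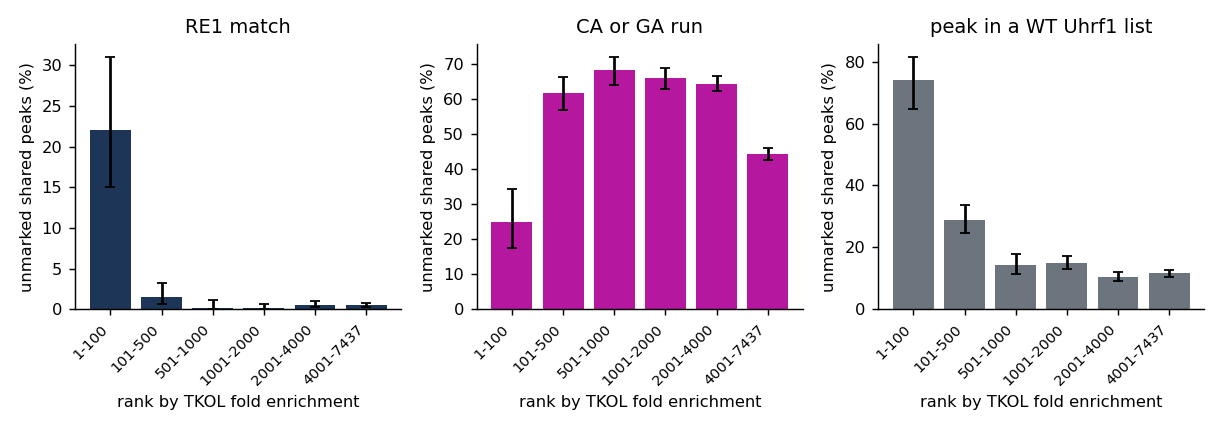
Percent of unmarked peaks with an exact RE1 match, with a CA or GA run of at least 20 bp, or with a peak in at least 1 WT Uhrf1 list, by rank of TKOL fold enrichment (rank 1 is the highest); bars are shares with 95% Wilson intervals. RE1 (22.0%) and WT peaks (74.0%) are highest among the first 100, where runs (25.0%) are lowest.

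GATA runs formed a further class, with 229 unmarked peaks (3.08%), against 2.48% of all TKOL Uhrf1 peaks and 0.292% of genome windows. They were not particular to unmarked peaks, since the share was 3.37% in unmarked TKOL peaks that DKO0 did not share, 4.05% in peaks with H3K9me3 alone, 3.42% with Trim28 alone and 1.13% with both marks. A GATA run is an unbroken repeat of these letters of at least 20 bp on either strand. They were among the members that recurred in WT. Both WT lists held 48 of the 229, which was 19.4% of the 247 unmarked peaks present in both lists, whereas 1.95% of unmarked peaks in no WT list had a GATA run. The peak nearest Dhx35 had fold enrichments of 4.70 and 3.79 in TKOL, 4.32 and 5.84 in DKO0, and 4.02 and 4.27 in WT, so that TKOL overlapped both other lines and the WT values lay just below those of DKO0. By library, 97 and 173 of the 229 were in TKOL lists, 24 and 165 in DKO0 lists, and 60 and 92 in WT lists, and in each line the list of replicate 2 held more.

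Peaks with CA or GA runs were less frequent in WT than unmarked peaks without them. Of the 4082 with a run, WT lists held 3.48% and 9.38%, and of the 3355 without, 8.02% and 14.2%. In the pair of DKO0 lists they differed as well, with 20.6% and 46.3% of peaks with a run against 37.3% and 44.7% of peaks without. Marked peaks with a run went the same way, so this was not particular to unmarked peaks. DKO0 lists held 43.6% and 60.0% of marked peaks with a run, and 55.3% and 42.6% of those without. WT lists held 7.79% and 19.5% of marked peaks with a run, against 47.5% and 55.1% of those without. The DKO0 lists share their reads with the pooled list of the rule. The GA-run peak beside Abcg2 (chr6:58532994-58533493) was in all 6 lists, with fold enrichments of 6.41 and 7.35 in TKOL, 4.26 and 5.70 in DKO0 and 3.60 in both WT lists.

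Of 15 other motifs, searched on both strands in the same windows, 4 were within 1.25 times of their share in genome windows, 5 were above and 6 below. The 4 were the GC box (GGGCGG; 2.81% of unmarked peaks and 2.86% of the genome), the E-box (CACGTG; 2.97% and 2.92%), the AP-1 site (TGACTCA; 4.52% and 4.66%) and the hexanucleotide TGCCGC of Zfp57, a KRAB zinc finger protein that acts through Trim28 at imprinted loci (1.87% and 1.81%, against 8.22% of marked peaks). Those above were a partial REST site (GGACAGCG, which overlaps the right part of RE1; 0.766% and 0.212%), CTCF (CAGGGGGCG; 0.202% and 0.0686%), Esrrb (TCAAGGTCA; 1.13% and 0.639%), NRF1 (GCGCATGC; 0.484% and 0.328%) and ETS (CCGGAAGT; 0.255% and 0.183%). Those below were the CCAAT box (CCAAT; 27.2% and 40.5%), the TATA box (TATAAA; 17.9% and 27.2%), the octamer (ATGCAAAT; 1.59% and 2.62%), YY1 (AAGATGGC; 1.60% and 2.69%), CRE (TGACGTCA; 0.121% and 0.163%) and BANP (TCTCGCGA; 0.0134% and 0.0249%). ETS, CRE and BANP were found at only 19, 9 and 1 unmarked peaks. Their Wilson intervals (0.164 to 0.399, 0.0637 to 0.230 and 0.00237 to 0.0761) hold the genome share, so their side is uncertain. All TKOL Uhrf1 peaks had the partial REST site in 0.275%, CTCF in 0.108%, Esrrb in 0.601%, NRF1 in 0.299% and ETS in 0.106%. They had the CCAAT box in 36.3%, the TATA box in 22.8%, the octamer in 1.71%, YY1 in 2.82%, CRE in 0.824% and BANP in 0.0834%. Coding promoters held a GC box in 40.2%, ETS in 4.57% and NRF1 in 3.11%, far above the unmarked peaks.

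At the promoters, the highest-ranked peaks repeated these classes. Of the 20 named by rank over all lists, 5 had an exact RE1 match (Gm16532, Rtbdn, Npas4, Vstm2l and L1cam) and 3 more had a match with 1 mismatch (Glra1, a glycine receptor subunit, Gprin1, an inducer of neurite outgrowth, and Camta1, a calmodulin-binding transcription activator). Runs of CA or GA were present at 6 (Yme1l1, 0610007L01Rik, C030039L03Rik, Hoxa13, Adam5 and Jsrp1) and a GATA run at Spopl. The remaining 5 were Sfi1, Tbc1d4, Gm3667, 6720456B07Rik and the mitochondrial genes mt-Cytb and mt-Nd6. The Npas4 peak (chr19:4989010-4989364) had fold enrichments of 4.25 and 9.13 in TKOL, 7.76 and 9.06 in DKO0 and 4.11 in WT replicate 2, with no peak in WT replicate 1. The L1cam peak (chrX:71114714-71115022) had 5.08 and 5.38 in TKOL, 4.63 and 4.67 in DKO0 and no peak in WT. The mitochondrial peak had low values in all 6 lists, from 1.34 to 2.27.

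Of the gene families and pathways examined, Hox genes, the homeobox regulators of body axis identity, had the highest share of promoters with an unmarked peak. It was 5 of 39 genes (12.8%; Hoxa2, Hoxa13, Hoxb3, Hoxb7 and Hoxd3), against 329 of all 22238 coding genes (1.48%). The Hoxa13 peak, with 3.46 and 5.62 in TKOL, 2.79 and 3.99 in DKO0 and none in WT, held a GA run of 59 bp. Those at Hoxb7, Hoxd3 and Hoxb3 held GA runs of 69, 48 and 36 bp, and were in 3, 2 and 2 of the 6 lists. Pluripotency factors had 2 of 17 (Esrrb and Zfp42, the latter better known as Rex1) and DNA methylation genes 1 of 18 (Dnmt3l, the cofactor of the de novo enzymes), whose peaks were in 3, 2 and 2 lists. Genes named Zfp had 9 of 367 (2.45%), olfactory receptors 2 of 1113 (0.180%) and ribosomal protein genes 1 of 95. H3K9 methylation (16 genes), replication fork (21), germline (14), histone (67), mitochondrial ribosome (77) and proteasome (40) genes had 0. In gene bodies, H3K9 methylation genes had the highest share, with 4 of 16 (25.0%; the H3K9 methyltransferase gene Setdb1, Setdb2, Atf7ip and Pphln1), followed by Hox genes with 5 of 39, against 1720 of all coding genes (7.73%). These shares take no account of gene length, and no list was tested.

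Unmarked peaks were unevenly spread over chromosomes. Chromosomes 6, 8 and 14 held 1223, 818 and 584 of them, or 8.36, 6.55 and 4.80 per Mb, against a median of 2.32 per Mb on the other autosomes (1.95 to 3.42) and 0.463 on the X. These 3 chromosomes held 35.3% of unmarked peaks, 25.1% of all TKOL Uhrf1 peaks and 17.9% of marked peaks, with 15.4% of the bases of the genome. In single TKOL and DKO0 Uhrf1 lists the share was 25.8% to 27.7%, and in WT lists 16.3% and 16.1%. Bins of 10 Mb were used along these chromosomes, and the ranges given here leave out the first 10 Mb of each. The 176 bins of the other autosomes had 0.4 to 8.7 peaks per Mb, with a median of 2.1. On chromosome 6 all 13 bins lay above this median, at 4.70 to 10.9 per Mb (median 8.3), and the first 10 Mb held 66 peaks. On chromosome 8 the range was 1.90 to 12.4 per Mb over 11 bins (median 7.8), with the lowest bin below that median. The first 10 Mb of chromosome 8 held only 8 peaks. Both ranges overlapped that of the other autosomes. On chromosome 14, 312 of the 584 peaks (53.4%) lay in the first 10 Mb. The other bins of chromosome 14 had a median of 2 per Mb, so its excess lay in the first 10 Mb.

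The density of CA and GA runs was 161 per Mb on chromosome 6 and 166 on chromosome 8, within the range of the other autosomes (146 to 168). Marked peaks were as dense as unmarked ones on chromosome 14, at 4.94 per Mb or 2.24 times the median of the other autosomes, where Trim28 peaks of TKOL were 1.69 times as dense, so that the excess on chromosome 14 was not particular to unmarked peaks. On chromosomes 6 and 8 marked peaks were 1.14 and 1.15 times as dense. H3K9me3 peaks of TKOL were 1.21 times as dense on chromosome 6 and 0.978 times on chromosome 8 as the median of the other autosomes, where unmarked peaks were 3.60 and 2.83 times as dense. Chromosome copy number in these clonal lines was not tested. Without these 3 chromosomes, 56.6% of unmarked peaks had a run, the mean WT share was 9.64% and 49 had an RE1 match.

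**Figure D5:**
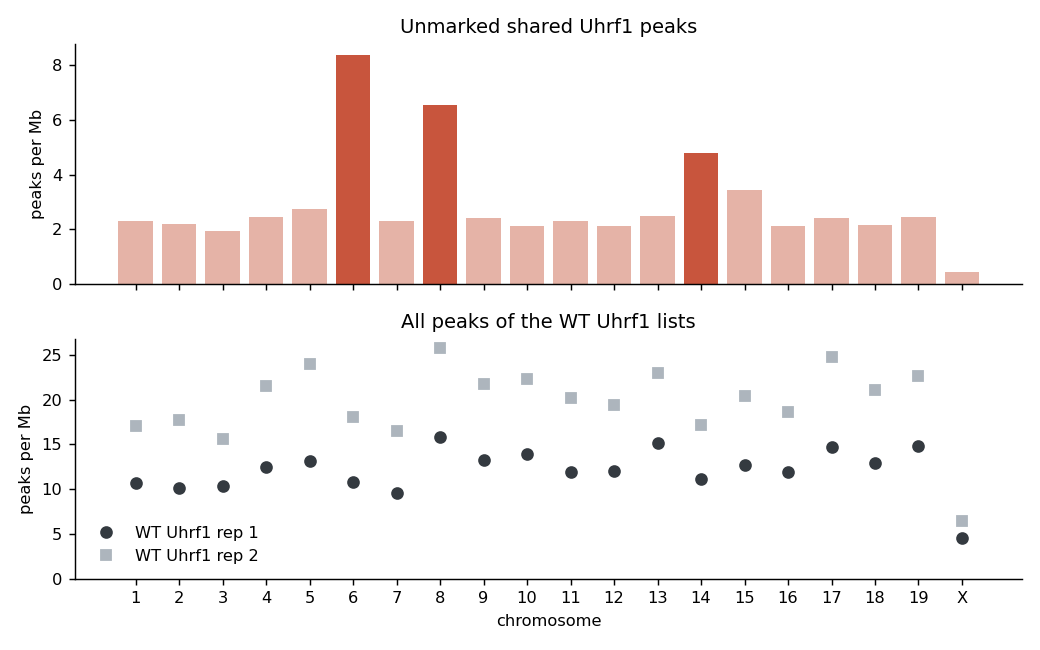
Unmarked shared Uhrf1 peaks per Mb by chromosome (top, chromosomes 6, 8 and 14 in dark red) and all peaks per Mb of the 2 WT Uhrf1 lists (bottom; points are single lists). Unmarked peaks reach 8.36 per Mb on chromosome 6 and 6.55 on chromosome 8, while WT peaks on chromosome 6 (10.8 and 18 per Mb) lie within the range of other autosomes and on chromosome 8 (15.8 and 25.8 per Mb) just above it (highest 15.1 and 24.8); chromosomes Y and M are left out.

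The genes with the most unmarked peaks in their bodies followed this spread. Gm10406 (40 peaks), Gm2974 (29) and Gm3739 (19) are predicted genes in a cluster of genes named Gm on chromosome 14, and placement among them is uncertain where they are near-identical copies. Cntnap2, a neuronal adhesion gene of 2241 kb on chromosome 6, held 15. On chromosome 8, Gm15319 held 14 in only 25.5 kb, and the long genes Galntl6 (1134 kb) and Csmd1 (1643 kb) held 12 and 9.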

How the data were processed

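H3K9me3, Trim28 and Uhrf1 in WT, TKOL and DKO0 cells were analysed from 24 peak lists, 18 of single replicates and 6 pooled. Groups came from the sample labels. The authors mapped reads to mm9 with BWA, took out duplicates using GATK and used MACS2 in its broad mode, merging the reads of both replicates before the pooled calls. Each deposited peak carries a q-value, as −log10, and a fold enrichment (a ratio over local background). The lists hold no reads, so depth is unknown. Input libraries and other assays were not analysed here. Where nothing says that replicates were separate cultures, p-values measure only the spread between lists.

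Overlaps of at least 1 bp were computed and checked with bedtools 2.31.1 (0 of 24 lists differed). Sequence came from NCBIM37, the Ensembl name of mm9, and genes from GENCODE vM1. A promoter was 1 kb on each side of a coding transcript start. Intervals are 95% Wilson intervals. Scripts were tested on simulated data. Named members were ranked by the number of the 6 single-replicate Uhrf1 lists with a peak, then by the geometric mean of both pooled fold enrichments, and the first 20 promoter, 5 gene body and 5 intergenic peaks were taken, with up to 4 per gene list. Members, gene lists and tests were chosen with earlier results of these data known, and runs, RE1, GATA and chromosome counts after the data were seen. Python 3.11.15, numpy 2.4.6 and scipy 1.17.1 were used.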

Additional observations from a re-analysis of the deposited data

How the results depend on the processing

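The number of unmarked peaks depended on the q-value threshold and on the lists. It was 3343 when both Uhrf1 lists were held to a −log10 q-value of 2 or more, 465 with at least 5, and 550 with a peak in both replicates of both lines. With 1 replicate in place of a pooled list it ranged from 2036 (without DKO0 replicate 2) to 4176, and it was 4124 without DKO0 replicate 1 and 3352 without TKOL replicate 2. At −log10 q of at least 2, CpG density was 0.446 per 100 bp and the WT share 13.3%. At 5 or more, CpG density was 0.435, the intergenic share 60.0%, the promoter share 5.16%, the WT share 40.0% and the share with a CA or GA run 34.8%. With a peak in both replicates, CpG density was 0.450, the WT share 31.4% and the run share 39.5%. Without 1 replicate, CpG density ranged from 0.366 to 0.623, the intergenic share from 58.7% to 63.3%, the promoter share from 2.80% to 9.03%, the gene body share from 32.3% to 35%, the run share from 43.0% to 58.7%, the WT share from 5.53% to 12.4% and the WT Uhrf1 difference from -49.7 to -38.8 points.

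Promoters of 500 bp, of 2 kb or of all annotated genes gave 2.57%, 7.37% and 5.92%. CpG density in 500 bp was 0.400. Among alternatives chosen after the data were seen, runs were at 45.2% for at least 30 bp, 32.0% inside the peak, 57.8% with no mark in any list, 57.6% with no mark within 1 kb, and 56.6% without chromosomes 6, 8 and 14. RE1 matches ranged from 27 of 465 peaks (−log10 q of at least 5) to 66 of 4176 (without TKOL replicate 1). The main set had 61 of 7437, or 145 with at most 1 mismatch. With a peak in both replicates of both lines, 29 of 550 (5.27%) had a match, so the share was higher in these stricter sets. Chromosomes 6, 8 and 14 held 33.9% to 44.5% of unmarked peaks. The causes were not tested. The WT Uhrf1 difference was between -30.6 and -49.7 points under the alternatives run and never changed sign, but the design cannot pass a threshold. With the replicate block, values of the same list paired, the differences were -40.8, -40.0 and -27.9 points with an exact permutation p of 0.5 (n = 2 pairs), the smallest possible. Each WT list gave a value for both classes, which is the pairing. Lists without reads limit what can be said of peaks near the threshold.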
